A study of Homo sapiens with 18 samples.

Results

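Active promoters bound by MYC but free of a KDM2B peak were examined in MDA-MB-231, a human breast cancer line that lacks oestrogen and progesterone receptors. The regions were chosen by measured peaks: a trimethylated H3K4 (H3K4me3) peak on chromosomes 1 to 22 was counted when it came within 1 kb of a protein-coding gene's start or other end, shared at least 1 bp with a MYC peak and with an acetylated H3K27 (H3K27ac) peak, and shared 0 bp with all KDM2B peaks. This gave 2642 regions, which is 25.5% of the 10365 active MYC promoters (95% Wilson interval 24.7 to 26.3), and the other 7723 shared at least 1 bp with KDM2B. They were drawn from 14037 H3K4me3 peaks near gene ends and 70139 on these chromosomes in all. KDM2B, MYC, H3K4me3, trimethylated H3K27 (H3K27me3) and ubiquitinated H2AK119 (H2AK119ub) were profiled by chromatin immunoprecipitation sequencing (ChIP-seq) in parental cells, and H3K27ac in cells that carried an empty vector, so the rule joins lists from 2 cell stocks of 1 line. Each of these targets had 2 libraries and 1 deposited peak list, so replicate errors cannot be given and each p-value compares regions or genes within lists. The labels do not say whether the 2 libraries came from separate cultures, and the ATF4 and input libraries were not analysed here. Read depth is unknown, since the lists hold no counts. Each fold below is the authors' enrichment at a peak's summit and can be ranked within 1 target only.

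KDM2B binds unmethylated CpG DNA through a CXXC zinc finger and brings the Polycomb complex ncPRC1.1, whose RING1 or RNF2 subunit ubiquitinates H2AK119, to CpG islands. H3K27me3 is written by PRC2, and both marks are best known from silent developmental genes. MYC pairs with MAX, prefers the E-box CACGTG and, in tumour cells, is found at most promoters that carry H3K4me3 and H3K27ac, the marks of active starts. MYC targets include genes of ribosome production, nucleotide synthesis and mitochondria.

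The following 300-base promoters, 250 bases before to 50 after the annotated start, are from RefSeq (GRCh38.p14) and read 5′ to 3′ along the gene. EARS2, METAP1D and NME1 are shown for a MYC fold among the 10 highest together with CACGTG, and MGME1 and ZNF131 for such a fold without it. MRPL48, ZNF787, IFIT3 and IFI6 come from gene groups described further on. They were picked by MYC fold among members of their group that held the ETS site or the interferon element. They need not be typical of their groups. Capitals mark CACGTG, the ETS family site CCGGAAG and the core of the interferon-stimulated response element, which is 2 runs of GAAA with 2 free bases between them, on either strand.
EARS2, chr16:23557301-23557600, minus strand: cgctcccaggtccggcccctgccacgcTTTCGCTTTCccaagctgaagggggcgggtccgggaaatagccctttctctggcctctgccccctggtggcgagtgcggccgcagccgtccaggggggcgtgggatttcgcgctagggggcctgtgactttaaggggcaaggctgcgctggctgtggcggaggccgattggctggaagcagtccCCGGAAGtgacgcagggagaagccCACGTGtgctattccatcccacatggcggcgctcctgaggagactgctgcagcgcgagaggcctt
METAP1D, chr2:171999703-172000002, plus strand: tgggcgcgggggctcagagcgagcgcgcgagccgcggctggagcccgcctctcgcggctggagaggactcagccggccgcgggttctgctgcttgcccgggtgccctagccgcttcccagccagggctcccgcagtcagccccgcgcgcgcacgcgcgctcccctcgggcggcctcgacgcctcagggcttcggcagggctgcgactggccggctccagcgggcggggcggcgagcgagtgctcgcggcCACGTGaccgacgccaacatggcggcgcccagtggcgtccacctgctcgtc
NME1, chr17:51153309-51153608, plus strand: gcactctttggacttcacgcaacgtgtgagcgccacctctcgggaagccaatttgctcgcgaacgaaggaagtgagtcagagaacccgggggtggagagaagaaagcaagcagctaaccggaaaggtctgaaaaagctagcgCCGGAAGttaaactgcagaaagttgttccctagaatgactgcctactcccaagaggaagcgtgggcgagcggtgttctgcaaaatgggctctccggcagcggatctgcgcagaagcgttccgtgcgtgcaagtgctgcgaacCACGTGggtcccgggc
MGME1, chr20:17968768-17969067, plus strand: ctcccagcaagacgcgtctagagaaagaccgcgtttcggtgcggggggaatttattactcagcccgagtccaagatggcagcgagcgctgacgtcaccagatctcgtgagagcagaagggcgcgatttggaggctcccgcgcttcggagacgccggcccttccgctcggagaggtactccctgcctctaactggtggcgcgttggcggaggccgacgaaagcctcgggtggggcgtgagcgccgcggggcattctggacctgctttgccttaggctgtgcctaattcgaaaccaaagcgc
ZNF131, chr5:43121211-43121510, plus strand: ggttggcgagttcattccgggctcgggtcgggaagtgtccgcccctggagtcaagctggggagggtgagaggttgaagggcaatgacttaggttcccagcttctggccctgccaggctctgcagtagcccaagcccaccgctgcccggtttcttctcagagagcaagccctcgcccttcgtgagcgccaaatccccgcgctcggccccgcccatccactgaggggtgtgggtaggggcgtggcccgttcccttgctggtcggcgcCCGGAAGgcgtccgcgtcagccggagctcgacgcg
MRPL48, chr11:73787624-73787923, plus strand: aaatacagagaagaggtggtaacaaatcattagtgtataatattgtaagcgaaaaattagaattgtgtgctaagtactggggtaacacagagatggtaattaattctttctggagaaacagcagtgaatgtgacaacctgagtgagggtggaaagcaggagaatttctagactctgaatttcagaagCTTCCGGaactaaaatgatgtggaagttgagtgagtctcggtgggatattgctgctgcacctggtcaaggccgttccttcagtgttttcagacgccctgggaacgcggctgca
ZNF787, chr19:56121246-56121545, minus strand: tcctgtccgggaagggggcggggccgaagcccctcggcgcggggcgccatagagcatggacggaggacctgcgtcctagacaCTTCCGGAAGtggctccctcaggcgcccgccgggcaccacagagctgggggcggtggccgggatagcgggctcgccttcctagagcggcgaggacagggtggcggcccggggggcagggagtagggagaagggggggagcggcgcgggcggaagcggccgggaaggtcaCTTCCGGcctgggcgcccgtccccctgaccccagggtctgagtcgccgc
IFIT3, chr10:89327747-89328046, plus strand: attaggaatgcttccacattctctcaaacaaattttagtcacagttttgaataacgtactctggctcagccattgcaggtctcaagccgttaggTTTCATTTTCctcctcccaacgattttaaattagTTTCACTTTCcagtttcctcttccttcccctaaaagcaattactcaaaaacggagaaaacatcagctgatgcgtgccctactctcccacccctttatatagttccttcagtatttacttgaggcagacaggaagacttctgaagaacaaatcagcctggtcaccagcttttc
IFI6, chr1:27672143-27672442, minus strand: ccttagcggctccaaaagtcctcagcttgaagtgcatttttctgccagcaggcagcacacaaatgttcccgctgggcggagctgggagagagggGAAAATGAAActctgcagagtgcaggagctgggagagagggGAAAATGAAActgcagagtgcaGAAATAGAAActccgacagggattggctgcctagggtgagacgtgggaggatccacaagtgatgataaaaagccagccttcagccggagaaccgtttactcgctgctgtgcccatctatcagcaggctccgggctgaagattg
MGME1 held none of the 3 motifs, while EARS2 held all 3. ZNF787 held 3 matches to the ETS site, 2 of them the strands of a single palindrome. IFIT3 held 2 interferon elements and IFI6 held 3. A match is a description of letters in this window and not a bound site.

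The 10 regions without KDM2B with the highest MYC fold lay at genes of varied function. The top region, chr20:17961696-17974590 (hg38), held the starts of MGME1, which encodes a mitochondrial exonuclease, and SNX5, which encodes a sorting nexin, and had a MYC fold of 85.1. ZNF131, a zinc finger factor, followed with a MYC fold of 53.0, and EIF3D, a subunit of the initiation factor eIF3, with 52.9. EEF1E1, a scaffold protein of the aminoacyl-tRNA synthetase complex, had 50.5. NACA, which binds nascent polypeptides at the ribosome, had 46.6, and the region shared by EARS2, the mitochondrial glutamyl-tRNA synthetase, and UBFD1 had 46.4. RIOK1, a kinase of small ribosomal subunit maturation, had 46.3 in a region shared with CAGE1. METAP1D, a mitochondrial methionine aminopeptidase, had 45.4, and NME1, a nucleoside diphosphate kinase, had 44.6. These 9 regions were 4327 to 12895 bp wide, held the MYC summit and had neither Polycomb mark. The nearest KDM2B peak was 82384 bp away at MGME1 and 7008 bp away at NME1. The remaining region of the 10, at the importin gene IPO7, was a fragment of 230 bp whose MYC summit, of fold 46.3, lay outside it and whose nearest KDM2B peak was 959 bp away.

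Regions without KDM2B carried less of all 3 features that defined them as active. The median H3K4me3 width was 4236.5 bp without KDM2B (quartiles 2511.5 and 5878 bp), against 6488 bp with it (5024 and 8369.5 bp). The median H3K4me3 fold was 31.8 without KDM2B and 45.7 with it, the median of the highest MYC fold 6.87 and 13.02, and that of H3K27ac 16.6 and 27.1. Both the rule and the width of a peak bear on these values, since a wide peak has more room to meet KDM2B, so they are given without a test. The spread was broad: the H3K4me3 fold of regions without KDM2B ran between 1.68 and 67.0. Active promoters without MYC and KDM2B, of which there were 749, stood lower still, with a median H3K4me3 width of 621 bp and fold of 3.02. Ranked by MYC fold in 10 classes of like size, KDM2B was lacking at 75.5% of the lowest class, whose median MYC fold was 3.56, and at 7.91% of the highest class, whose median was 32.3. Even so, 82 promoters of the highest class had no KDM2B peak.

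**Figure D1:**
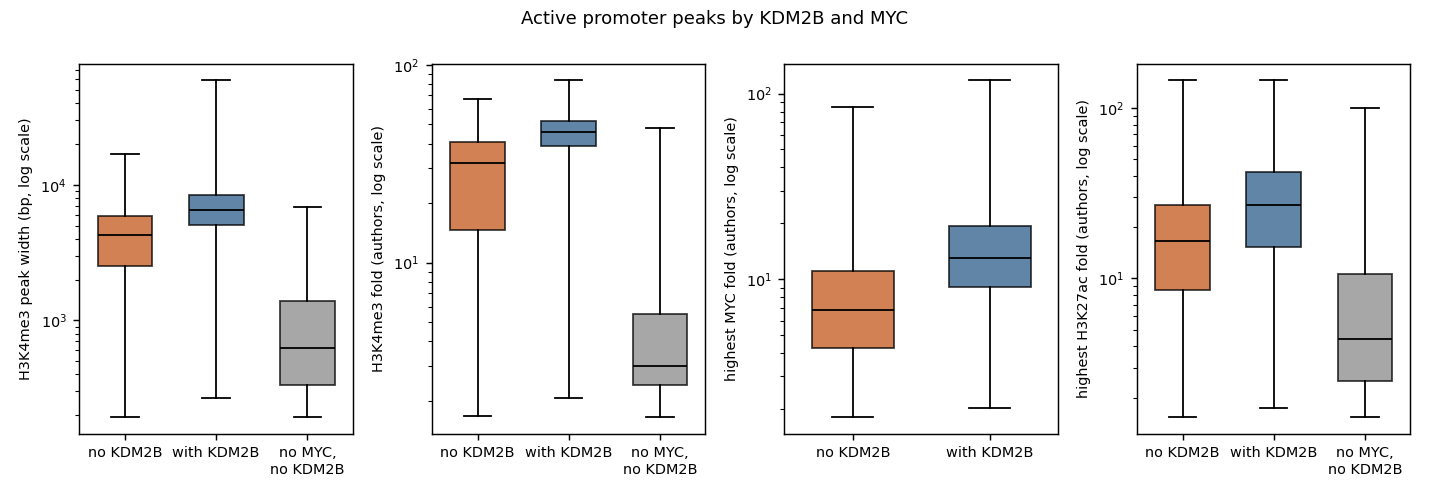
Peak width in bp and the authors' folds, on log axes, for active MYC promoters without KDM2B (2642), with KDM2B (7723) and, except for MYC, active promoters without MYC and KDM2B (749); boxes span the quartiles, the line is the median and whiskers reach the lowest and highest value. The median width was 4236.5 bp without KDM2B, against 6488 bp with it, and the groups overlap in each measure.

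The strongest H3K4me3 folds without KDM2B were 67.0 at CGRRF1, a ring finger gene, 66.8 at ASPM, a spindle pole protein of dividing cells, 63.8 at the nucleotidase gene CANT1, 62.1 at SFXN2 and WBP1L, and 61.8 at SPC24, a kinetochore subunit. MYC folds at these 5 regions ran between 4.84 at SFXN2 and WBP1L and 23.8 at ASPM. The widest region, 16834 bp, spanned ATP6V1G2, DDX39B and NFKBIL1 (chr6:31534656-31551489), with a MYC fold of 30.6 and an H3K27ac fold of 77.4. Next were the regions of MTMR11, OTUD7B and SF3B4 at 16696 bp, of BRD3, a bromodomain reader of acetylated histones, at 16081 bp, of ATP5MF and ZNF789 at 15697 bp and of ZNF205 at 15582 bp. The H3K27ac fold was highest at a 267 bp fragment near the end of EEF1A1, with 145, but this summit lay outside the fragment, as at PRKCH (112), RPS19 (106) and FLOT1 (106). At RCC1, which encodes the exchange factor of RAN, the H3K27ac summit of fold 104 lay inside a region of 8849 bp. Over all regions without KDM2B, the summit of the highest MYC peak lay inside the H3K4me3 peak in 93.8%, against 99.4% of those with KDM2B.

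Position set some of these regions apart from promoters in the strict sense. Among the 2097 regions without KDM2B whose genes all had a promoter entry in the reference, 1500 (71.5%) held an annotated start, against 5662 of 6046 with KDM2B (93.6%). The 1566 regions without KDM2B known to hold a start had a median width of 5002.5 bp and a median MYC fold of 8.39, and the other 1076 had 2435 bp and 4.94. Starts on both strands were held by 182 of the 1566 (11.6%) and by 823 of 6037 with KDM2B (13.6%). For regions that held the start of 1 gene, the position of the highest MYC summit was read per gene end. A region near both ends of its gene was counted at each end, so the totals are records and not promoters. The summit lay within 250 bp of the start in 64.5% of 1449 records without KDM2B and 51.2% of 5498 with it. Its median position was 120 bp after the start without KDM2B and 153 bp after it with KDM2B. In the same records H3K4me3 reached a median of 1682 bp before and 3090 bp after the start without KDM2B. With KDM2B it reached 2369 and 3923 bp. The H3K4me3 summit followed the same order as the MYC summit, within 250 bp of the start in 51.9% of records without KDM2B and 31.2% with it. Regions with KDM2B were wider, and the part of width in these shares was not tested.

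**Figure D2:**
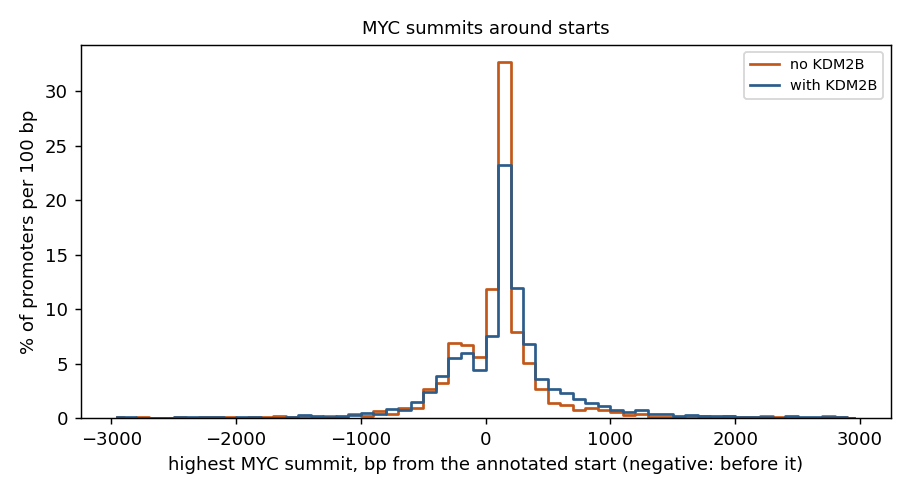
Position of the highest MYC summit in bp from the annotated start, as the percentage of records per 100 bp, without KDM2B (1449) and with KDM2B (5498). Records are from regions that hold the start of 1 gene, and a region near both ends of its gene counts at each end. Both lines peak just after the start, and 64.5% without KDM2B, against 51.2% with it, lay within 250 bp.

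Called KDM2B peaks mostly lay far from the regions without KDM2B. KDM2B signal below the peak caller's limit is not in the lists, so its presence at these regions was not tested. The nearest KDM2B peak was a median of 39034.5 bp away, and 131 regions (4.96%) had one within 1 kb. The nearest were FXYD2 at 179 bp, COL6A1 at 226 bp, DNAJB12 at 227 bp, CCAR2 at 237 bp and LEPR with LEPROT at 264 bp. Just across the limit, the smallest KDM2B overlaps were 80 bp at CTHRC1, 105 bp at GTF3C1 and 179 bp at SASS6 with TRMT13, at FAM241B and at DHX37. The KDM2B fold at these 5 was 2.86 to 3.45, below the median of 4.003 over the 7723 regions with KDM2B. With only KDM2B peaks of q under 1e-5 counted, the number of active MYC promoters without KDM2B was 4158, so 25.5% depends on where the peak caller's limit was set.

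Polycomb marks, which the rule did not use, were less frequent without KDM2B. H2AK119ub was at 678 of 2642 regions without KDM2B (25.7%, 95% Wilson interval 24.0 to 27.4), against 3159 of 7723 with it (40.9%, 39.8 to 42.0), while 41.5% of all H3K4me3 peaks near gene ends had it. The odds ratio was 0.499 (0.452 to 0.550; Fisher's exact test, two-sided, adjusted p = 8.84e-45 over 20 tests). H3K27me3 was at 133 regions without KDM2B (5.03%) and 707 with it (9.15%), against 13.3% of all peaks near gene ends, an odds ratio of 0.526 (0.435 to 0.637; exact Fisher test, adjusted p = 1.08e-11). Both marks together were at 110 regions without KDM2B (4.16%) and 617 with it (7.99%), with 11.7% over all, an odds ratio of 0.5003 (0.406 to 0.616; exact Fisher test, adjusted p = 1.08e-11). Neighbouring regions can share a broad domain, so the p-values are smaller than independent regions would give.

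Peak width differed between the groups, so the marks were also counted in 5 classes of width. In the narrowest class, 194 to 4010 bp, H2AK119ub was at 27.8% of 1231 regions without KDM2B and 26.4% of 842 with it, and the Wilson intervals overlapped (25.4 to 30.4 and 23.5 to 29.4). In the widest class it was at 55.9% of 161 without KDM2B and 72.5% of 1912 with it, and in the second narrowest at 14.2% and 23.2%. H3K27me3 was at 3.17% without KDM2B and 7.13% with it in the narrowest class (2.33 to 4.30 and 5.58 to 9.07). In the other 4 classes its Wilson intervals overlapped, with 4.97% and 6.42% in the second narrowest and 11.2% and 12.3% in the widest. A logistic regression over all 10365 regions had log2 width and log2 fold of H3K4me3 as covariates. The odds ratio was 0.263 (0.228 to 0.304) for H2AK119ub and 0.428 (0.337 to 0.544) for H3K27me3. Width and fold entered this fit together, so these odds ratios do not show the part of width alone. The marks also followed position: H2AK119ub was at 17.9% of regions without KDM2B that held a start, against 38.9% of those with KDM2B, and at 36.9% and 48.1% of regions in which no start was known.

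**Figure D3:**
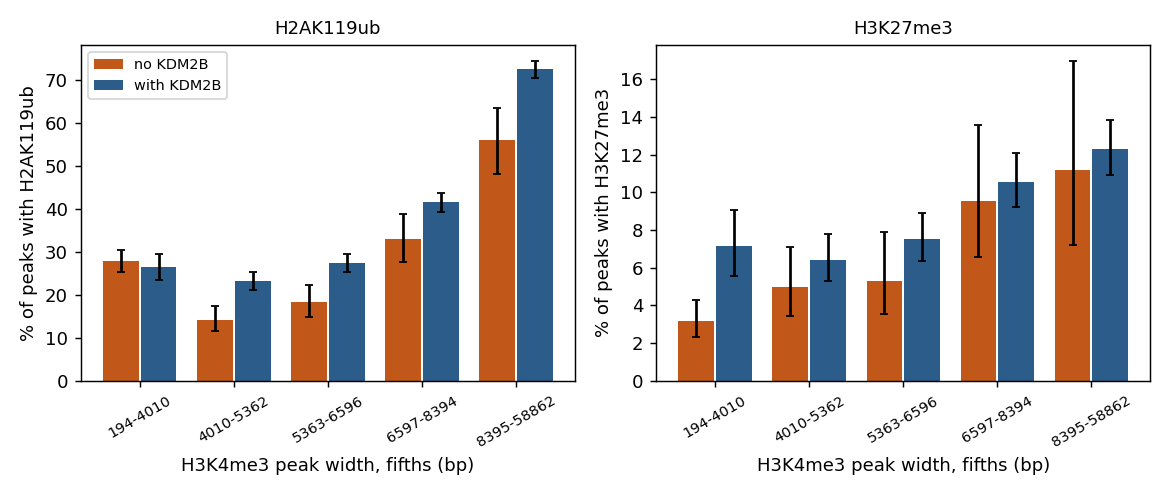
Percentage of active MYC promoters with H2AK119ub (left) and H3K27me3 (right) in 5 classes of H3K4me3 width (bp), without KDM2B and with KDM2B; error bars are 95% Wilson intervals. H2AK119ub was at 27.8% and 26.4% of the narrowest class and at 55.9% and 72.5% of the widest.

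The strongest H2AK119ub without KDM2B lay mostly at small regions with no known start. The highest fold, 5.56, was at KNDC1 (chr10:133225317-133227404), where H3K27ac had a fold of 2.99. LOC124900374 had 5.24 and 5.03 in 2 neighbouring regions of 680 and 355 bp, LOC124905375 had 5.08 and MAD2L2 had 4.92. The highest H3K27me3 fold was 5.64 at FAM163A, with H2AK119ub of 3.95. ARFGAP1, a GTPase activator of the Golgi, followed with 5.39, then TNRC6B, a partner of Argonaute proteins, in a region shared with FAM83F, with 5.02, LOC128966744 with 4.71 and BRD3 with 4.64. BRD3 had an H3K4me3 fold of 41.4 and a MYC fold of 8.16 in the same 16081 bp, and peaks of opposed marks in so wide a region need not share a nucleosome.

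Set against the 749 active promoters that lacked MYC as well, H2AK119ub was at 25.7% of the promoters with MYC alone and 26.8% of those with neither factor (odds ratio 0.941, 0.783 to 1.13; exact Fisher test, adjusted p = 0.599), and the difference did not pass. In the fit with H3K4me3 width and fold the direction turned, with an odds ratio of 2.54 (1.94 to 3.32). The quartiles of width were 2511.5 and 5878 bp with MYC alone, against 336 and 1401 bp with neither factor. Those of H3K4me3 fold were 14.7 and 40.7, against 2.41 and 5.52. These ranges do not meet, so fitted odds ratios depend on the form of the fit. H3K27me3 was at 5.03% and 3.47% (odds ratio 1.47, 0.960 to 2.26; exact Fisher test, adjusted p = 0.120), and the fit gave 0.779 (0.452 to 1.34); neither passed.

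Promoter sequence, also independent of the rule, was compared between genes. Of 12040 genes with an active MYC promoter, 2336 had such regions only without KDM2B (19.4%), 9704 had at least 1 with it, and 673 of these 9704 had both kinds. RefSeq promoters were at hand for 15101 of 19126 protein-coding genes, including 1901 genes without KDM2B and 7955 with it. A ratio of observed to expected CpG of at least 0.6 was found in 76.5% of promoters without KDM2B and 86.0% with it, against 66.3% of all 15101 (odds ratio 0.530, 0.469 to 0.5999; exact Fisher test, adjusted p = 1.12e-21). The median ratio was 0.807 without KDM2B and 0.852 with it, the median count of CpG 22 and 28 per 300 bases, and the median GC content 61% and 66.7%. Most promoters without KDM2B were therefore CpG-rich. With H3K4me3 width and fold as covariates the odds ratio was 0.858 (0.740 to 0.995), and its adjusted p of 0.0716 by logistic regression did not pass.

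The E-box share did not pass the test. CACGTG was in 184 promoters without KDM2B (9.68%) and 838 with it (10.5%), against 8.77% of all promoters (odds ratio 0.910, 0.769 to 1.08; exact Fisher test, adjusted p = 0.369). The related CACGCG was in 15.0% without KDM2B and 19.3% with it, against 14.9% of all (odds ratio 0.738, 0.643 to 0.847; exact Fisher test, adjusted p = 2.62e-05). This call was lost with H3K4me3 width and fold as covariates (odds ratio 0.870, 0.748 to 1.01), and with GC content added the odds ratio was 1.12 (0.959 to 1.31).

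The ETS family site was more frequent without KDM2B. CCGGAAG, as found in EARS2, NME1, ZNF131, MRPL48 and ZNF787, was in 510 of 1901 promoters without KDM2B (26.8%, 24.9 to 28.9) and 1468 of 7955 with it (18.5%, 17.6 to 19.3), against 14.4% of all. The odds ratio was 1.62 (1.44 to 1.82; exact Fisher test, adjusted p = 8.39e-15) and 2.24 (1.96 to 2.56) in a fit with H3K4me3 width, H3K4me3 fold and GC content. With zinc finger genes left out it was 1.52 (1.34 to 1.72), from 24.97% without KDM2B and 17.98% with it. Among zinc finger genes alone, 67 of 127 without KDM2B (52.8%) and 76 of 212 with it (35.8%) held the site. For genes whose start lay inside the region the shares were 29.6% without KDM2B and 19.5% with it.

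Other motifs were read on both strands of the same promoters, with those of 10 or more letters given by name. The NFY box CCAAT was in 41.5% without KDM2B, 35.2% with it and 36% of all (odds ratio 1.30, 1.17 to 1.44; exact Fisher test, adjusted p = 1.51e-06). The ZNF143 site was in 20 promoters without KDM2B (1.05%) and 36 with it (0.453%), against 0.377% of all (odds ratio 2.34, 1.35 to 4.05; exact Fisher test, adjusted p = 0.00630). The interferon element was in 3.68% without KDM2B, 2.36% with it and 3.17% of all (odds ratio 1.58; exact Fisher test, adjusted p = 0.00355), and with H3K4me3 width, H3K4me3 fold and GC content in the fit its odds ratio of 1.28 had an interval of 0.933 to 1.76. The AP-1 site TGANTCA was in 5.997% without KDM2B, 4.07% with it and 5.7% of all (odds ratio 1.503; exact Fisher test, adjusted p = 0.000891), and the call was lost with H3K4me3 width and fold in the fit (odds ratio 1.18, 0.914 to 1.52) and with GC content added to them (0.982). The GC box GGGCGG, bound by SP factors, was in 62.2% without KDM2B, 73.7% with it and 58.9% of all (odds ratio 0.586; exact Fisher test, adjusted p = 1.12e-21), and it was 0.753 (0.669 to 0.848) with H3K4me3 width and fold in the fit but turned to 1.28 (1.12 to 1.48) with GC content added to them.

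The remaining 6 motifs did not pass Fisher's exact test after adjustment. TATAAA was in 6.10% of promoters without KDM2B and 5.23% with it, against 9.71% of all, and TGACGTCA in 4.16% and 3.26%, against 2.65%. The YY1 site was in 3.52% and 2.78% (1.96% of all) and the NRF1 site in 2.31% and 2.56% (1.77% of all). A palindromic element of housekeeping promoters was in 0.894% and 1.02% (0.675% of all), and the E2F site TTTCCCGC in 2.47% and 2.78% (2.17% of all). With H3K4me3 width and fold in the fit, TGACGTCA (odds ratio 1.42, 1.06 to 1.89) and the YY1 site (1.78, 1.31 to 2.43) passed. TATAAA had an odds ratio of 1.18 without covariates and 0.914 (0.717 to 1.17) with width and fold. With GC content added it was 0.672 (0.523 to 0.863).

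**Figure D4:**
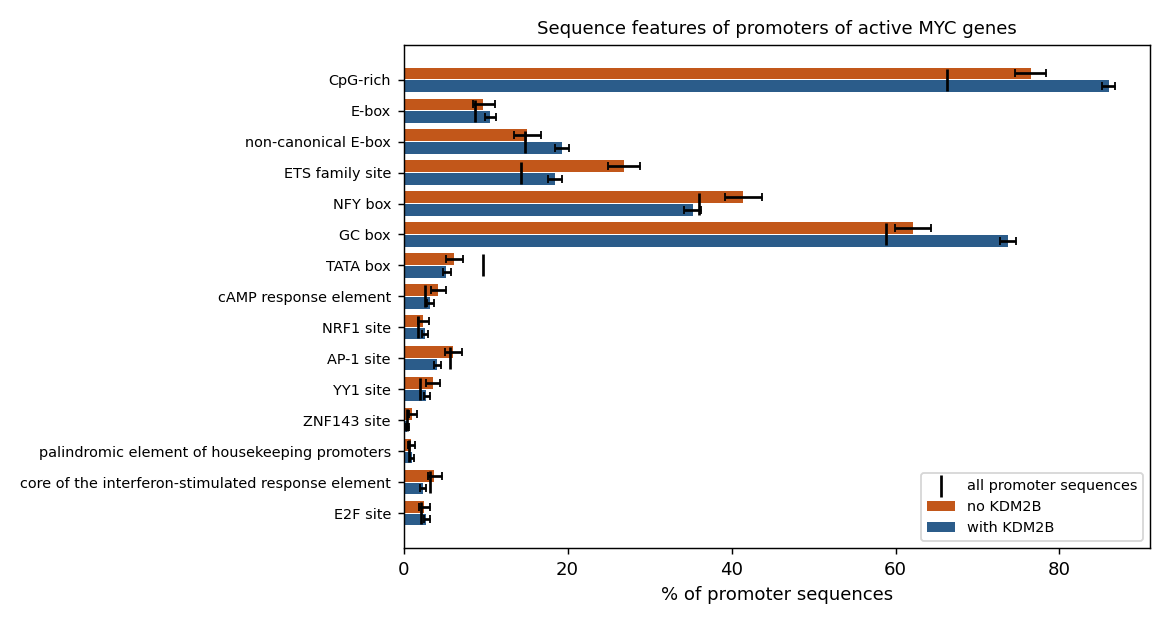
Percentage of promoter sequences with each feature, for genes of active MYC promoters without KDM2B (1901) and with KDM2B (7955), with 95% Wilson intervals; the upright marks give all 15101 promoters. The ETS family site was in 26.8% without KDM2B and 18.5% with it, while the E-box was in 9.68% and 10.5%.

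Gene lists of known function were counted against the background of 19.4% of genes with an active MYC promoter that lacked KDM2B, as a description without a test. Zinc finger genes of chromosome 19, many of which encode repressors with KRAB domains, had the highest share, 94 of 181 (51.9%, 95% Wilson interval 44.7 to 59.1). Zinc finger genes outside chromosome 19 had 50 of 211 (23.7%) and all other genes of chromosome 19 had 147 of 757 (19.4%). Among the 94, ZNF121 had the highest MYC fold, 24.2, then ZNF787 with 21.8, ZNF566 with 16.7 and ZNF562 with 15.5. Their 91 regions had a median MYC fold of 5.86, and 2 of them (2.198%) had H2AK119ub, against 19 of 83 regions of the same gene list with KDM2B (22.9%). Over all genes these shares were 475 of 2135 regions without KDM2B (22.2%) and 3159 of 7723 with it (40.9%). The 2135 are regions of genes that had no active MYC region with KDM2B. Over all 2642 regions without KDM2B the share was 25.7%. The list's regions had a median width of 5063 bp without KDM2B and 6155 bp with it. The ETS site was in 48 of the 83 promoters with a sequence, against 26.8% of all such promoters without KDM2B, and CACGTG was in 2, against 9.68%. Neither motif count was set beside the genes of this list with KDM2B.

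Mitochondrial ribosomal proteins, which translate the genes of mitochondrial DNA, lacked KDM2B at 27 of 76 genes (35.5%, 25.7 to 46.7), while cytosolic ribosomal proteins did at 8 of 80 (10%, 5.15 to 18.5). The cytosolic members had high MYC all the same, with folds of 38.6 at RPL34, 38.5 at RPL24, 35.1 at RPL23 and 31.2 at RPL21. In the mitochondrial list the MYC fold was 34.9 at MRPL42, 27.6 at MRPL48, 20.5 at MRPL35 and 19.8 at MRPL15. None of its 27 regions without KDM2B had H2AK119ub, which allows a share of up to 11.1%, against 26 of 50 with KDM2B (52%). Over all genes the shares, counted as for the zinc finger list, were 22.2% without KDM2B and 40.9% with it. In the mitochondrial list the regions had a median width of 5069 bp without KDM2B and 8935.5 bp with it. Shares within the list were not compared at like width. The ETS site was in 11 of 24 promoters of the list without KDM2B, against 26.8% over all genes without it. This count was not set beside the genes of the list with KDM2B, so it is not shown to be particular to those without it. Complex I of the respiratory chain lacked KDM2B at 10 of 32 genes (31.2%), led by NDUFB2 with a MYC fold of 25.6, and the other respiratory and import genes at 13 of 55 (23.6%), led by ATP5PF with 29.6.

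Interferon-stimulated genes, the antiviral genes switched on by interferon signalling, lacked KDM2B at 12 of 28 (42.9%, 26.5 to 60.9). The 12 were IFI35, IFI44, IFI6, IFIT1, IFIT2, IFIT3, IRF9, OAS2, OASL, SAMD9, STAT2 and USP18. MYC was weak there: the fold was 12.6 at OASL, 7.47 at IFIT3, 6.89 at USP18 and 6.02 at IFI35, and the median over their 15 regions was 3.46, against 11.2 at the regions of this list with KDM2B. At IFIT3 (chr10:89326737-89334299) H3K27ac had a fold of 46.3 and H3K4me3 one of 20.6. Only 1 of the 8 promoters with a sequence was CpG-rich, against 76.5% of all promoters without KDM2B. The interferon element, in capitals in IFIT3 and IFI6, was in 5 of the 8, against 3.68% of all promoters without KDM2B. Neither count was set beside the genes of this list with KDM2B, so neither is shown to be particular to those without it.

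DNA repair genes lacked KDM2B at 13 of 50 (26%, 15.9 to 39.6), among them the recombination genes PALB2, with a MYC fold of 24.8, and BRCA2 with 14.6, the damage kinase gene ATM with 15.3, and APEX1, an endonuclease of base excision repair, with 14.6. Of 44 cell cycle genes, 5 lacked it (11.4%, 4.95 to 24.0), namely CDC25B, BUB1B, PLK1, CCNE1 and TTK; MYC folds were 22.4, 21.7, 17.998 and 14.6 at the first 4 in that order, and the MYC summit of CDC25B lay outside its region. Replication-dependent histones lacked KDM2B at 10 of 42 (23.8%), led by H4C8 with 14.7 and by the shared region of H2AC15 and H2BC15 with 11.2. Immediate early genes had the lowest share, 1 of 20 (5%, 0.888 to 23.6), which was ATF3 with a MYC fold of 4.94. This interval holds the background of 19.4%.

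Ribosome biogenesis and nucleotide synthesis lacked KDM2B at 7 of 34 (20.6%), close to the background, with MYC folds of 41.0 at ATIC, 36.8 at GART and 28.9 at PAICS, which are enzymes of purine synthesis, and 32.5 at the nucleolar GNL3. Also close to the background, translation factors lacked it at 7 of 38 (18.4%), with EEF2, the translocation factor, at 27.2, and proteasome subunits at 6 of 35 (17.1%), led by PSMA2 at 16.3. Cytosolic aminoacyl-tRNA synthetases lacked it at 2 of 20, IARS1 with 25.0 and MARS1 with 18.8. Serine, glycine and one-carbon enzymes lacked it at 2 of 18 (11.1%), DLD, a shared subunit of the glycine cleavage system, with 8.16 and ALDH1L2 with 6.54.

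Amino acid transporters lacked KDM2B at 5 of 19 (26.3%, 11.8 to 48.8), namely SLC7A11, SLC38A7, SLC1A1, SLC7A9 and SLC7A10. SLC7A11, the cystine carrier that feeds glutathione synthesis, had 2 adjoining regions, chr4:138233162-138242424 and chr4:138242629-138254629. Their MYC folds were 10.6 and 6.78, their H3K27ac folds 57.5 and 49.1, neither had a Polycomb mark, and the nearest KDM2B peaks were 773118 and 760913 bp away. Among 13 core genes chosen here, from amino acid genes, ATF4, MYC and KDM2B, SLC7A11 alone had active MYC promoters only without KDM2B. Of the 13, 11 had at least 1 with it and ASNS had none of either kind. MYC, on chromosome 8, had a main region of 9357 bp with KDM2B of fold 6.92, and besides it a fragment of 359 bp without KDM2B.

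ATF4-responsive genes lacked KDM2B at 6 of 27 (22.2%), with CTH, which makes cysteine, at a MYC fold of 12.2, DDIT3, which encodes CHOP, at 10.8 with the summit outside the region, ATG5 at 7.35 and NUPR1 at 6.09. Among mesenchymal and basal genes without KDM2B, ZEB2, a repressor of epithelial genes, had a MYC fold of 6.09 and ANXA1, an annexin, had 4.60. Cytokines and chemokines had few active MYC promoters, 2 of 10 without KDM2B. These were CCL20 at 4.83 and CSF2 at 4.51, the latter with the summit outside the region. Polycomb genes lacked it at 4 of 35 (11.4%): YAF2 and RYBP, which are ncPRC1.1 subunits, had MYC folds of 10.9 and 10.1, L3MBTL2 had 5.71 and PHC1 had 4.37.

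**Figure D5:**
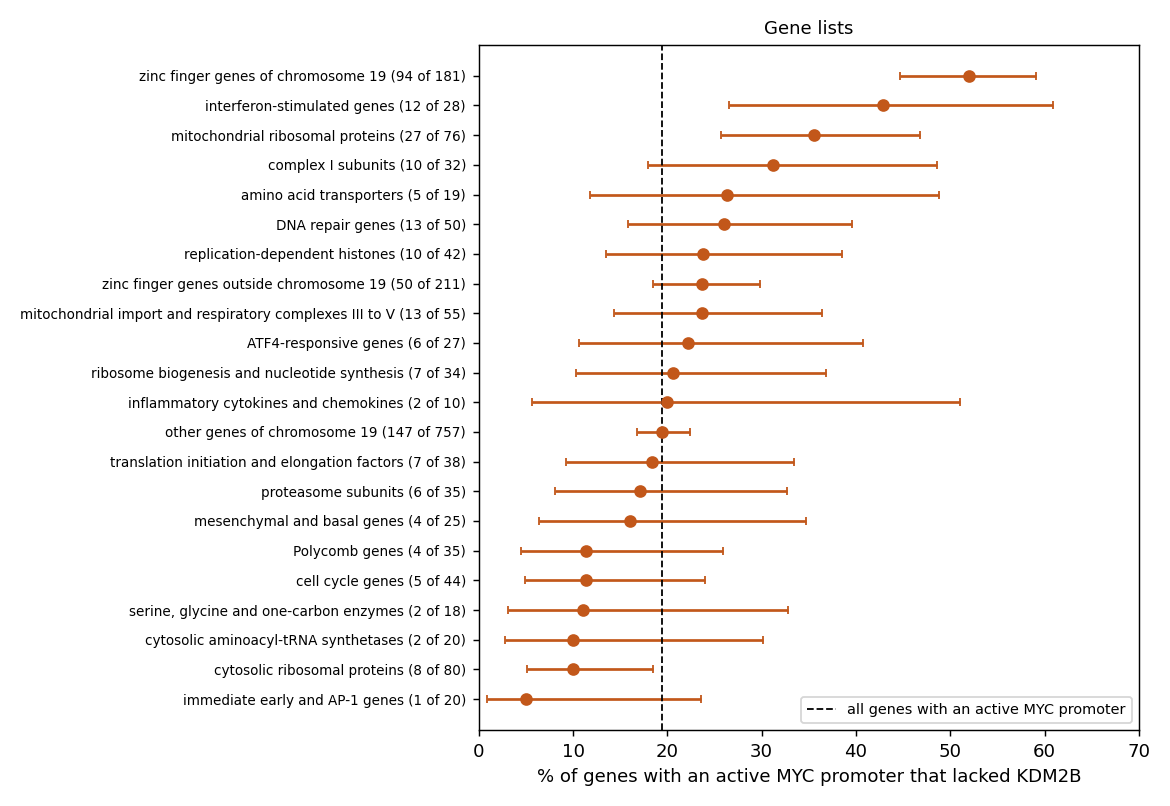
Percentage of genes with an active MYC promoter that lacked KDM2B, by gene list, with 95% Wilson intervals that cover counting error only and the counts beside each name; the dashed line is 19.4% over all such genes. Zinc finger genes of chromosome 19 stand at 51.9% and immediate early genes at 5%, the latter with an interval that crosses the dashed line.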

How the data were processed

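The 18 ChIP-seq libraries fall by their titles into 9 groups of 2, each an antibody or input in parental or empty-vector MDA-MB-231 cells, and peak lists of 6 targets were used. Per the submitters' processing notes, Bowtie2 2.4.5, SAMtools 1.6 and MACS2 2.2.7.1 were used with build hg38, and Trim Galore without a stated version. The control of each list, and whether libraries were pooled, are not given in the sources used here. From the deposited lists came the authors' fold (a ratio of pileup to local background at the summit), the −log10 q-value of each peak and its summit position in bp from the peak start. None holds counts, so depth is unknown and intervals cover counting error over regions or genes only.

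Gene ends and promoters came from RefSeq GRCh38.p14, the same assembly as hg38. Windows of 1 kb lay around both ends of 19126 protein-coding gene records on chromosomes 1 to 22. Fold at a region is that of the highest peak sharing at least 1 bp. Shares were compared by Fisher's exact test, two-sided, and by logistic regression (statsmodels 0.14.6, SciPy 1.17.1, Python 3.11.15), with Benjamini-Hochberg adjustment over 20 tests and a threshold of 0.05. Scripts were tested on simulated data. Members, gene lists and tests were chosen with earlier results of these data known. The motifs besides CACGTG and CACGCG, the comparison with promoters lacking MYC, and the subsets by start and by zinc finger genes were added after the files were seen.

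Genes named are the 10 regions with the highest MYC fold, the 5 with the highest value of each other measure, the 5 on either side of the KDM2B limit, up to 4 genes per list by MYC fold, 13 core genes, and all members of counts of 5 or fewer, apart from a few items that are not reported here. Others, such as the 12 interferon genes, were named after their values were seen.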

Additional observations from a re-analysis of the deposited data

How the results depend on the processing

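The odds ratios of H2AK119ub (0.263 to 0.578), H3K27me3 (0.428 to 0.622) and CpG-rich sequence (0.466 to 0.858) kept their direction and an unadjusted p under 0.05 under each of 11 alternatives. That of CACGTG was 1.004 with all 4 lists at q under 1e-5 and 0.792, past an unadjusted 0.05, when CACGCG was counted too. The share of active MYC promoters without KDM2B was 24.3% with windows of 500 bp, 29.2% with 2500 bp, 38.5% with all 4 lists at q under 1e-5 and 40.1% with the KDM2B list alone at that limit. It was 24.2% with KDM2B within 1 kb counted, 23.6% with summits, 22.7% with H3K4me3 peaks merged across 1 kb, 21.7% with the widest peak per gene and 20.6% with regions holding a start, a setting added later. The number was 4158 with the KDM2B limit and 1566 with starts. These settings change which peaks enter. No paired analysis was possible because each target has 1 peak list that does not resolve its libraries, and no library could be left out for the same reason. Unknown depth limits each statement that KDM2B is lacking to peaks not called.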

Other observations

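The share of active MYC promoters without KDM2B differed between chromosomes. Chromosome 19 had 285 of 789 (36.1%, 95% Wilson interval 32.8 to 39.5), chromosome 21 had 39 of 110 (35.5%, 27.1 to 44.7) and chromosome 18 had 53 of 159 (33.3%, 26.5 to 41.0). Chromosome 3 had 113 of 619 (18.3%, 15.4 to 21.5), chromosome 2 had 130 of 712 (18.3%, 15.6 to 21.3) and chromosome 17 had 120 of 638 (18.8%, 15.97 to 22.02). Counted by genes on chromosome 19, KDM2B was lacking at 51.9% of zinc finger genes and 19.4% of other genes. Copy number was not measured in the lists. The part of gene content or copy number in the shares by chromosome was not tested.

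Regions under 1 kb wide made up 240 of the 2642 (9.08%), and 551 (20.9%) had a KDM2B peak within 10 kb. Outside the chromosome 19 zinc finger genes, H2AK119ub was at 62.0% of 137 regions without KDM2B at other genes of that chromosome and 78.8% of 434 with it. With regions near zinc finger genes left out of the whole comparison, the odds ratio of H2AK119ub without against with KDM2B was 0.516 (0.466 to 0.570; Fisher's exact test, two-sided, unadjusted p = 2.07e-40).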
